A study of Mus musculus with 12 samples.

Results

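The genes described here encode the machinery that brings proteins into mitochondria, the CHCHD proteins of the intermembrane space and inner membrane, and a small set of inner membrane and matrix proteases with their prohibitin partners. They were selected on their names: a gene belonged when the platform annotation gave 1 of its probe sets a single symbol starting with Timm, Tomm or Chchd, or the symbol Yme1l1, Afg3l2, Clpp, Lonp1, Phb or Phb2. This gave 36 genes with 79 probe sets, of 18193 genes and 45101 probe sets measured. Phb, Tomm5, Tomm6 and Chchd2 were named only on probe sets that also name another gene, of which there are 7, and were not analysed here. The set was proposed after Chchd10 and Yme1l1 had been picked out on their CH and REC changes on these same arrays, so the values of those 2 genes are a description without a test.

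RNA of whole blood was hybridized to Affymetrix mouse arrays, 1 mouse per array and 4 mice per group, 12 arrays in all. The CH mice spent 14 days in normobaric hypoxia, with oxygen lowered in steps and at 8% when blood was drawn. The REC mice had the same 14 days of CH and then 14 days at 21% oxygen, and the NX mice breathed 21% oxygen throughout. All were C57Bl/10 wild type mice, aged 3 months when obtained. The REC protocol was longer by its 14 days of recovery, so recovery cannot be told apart from age or time of sampling. A probe set is a group of short oligonucleotides that measures a transcript, and its value is a brightness on a linear scale, called its signal here. Every change is a difference of mean log2(signal + 16) between groups, which makes changes of dim transcripts look smaller. A call of higher or lower needed a 2-fold or larger change with limma's p under 0.05, adjusted by Benjamini-Hochberg over all 45101 probe sets. Each gene is given by its brightest single-gene probe set, and levels of different genes are not compared.

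Nearly all mitochondrial proteins are made in the cytosol and imported. The TOM complex of the outer membrane is the common gate. Behind it the TIM23 complex takes proteins with a cleavable presequence to the matrix and inner membrane, the small Tim chaperones and the TIM22 complex take carrier proteins to the inner membrane, and CHCHD4 traps small cysteine-rich proteins, among them many CHCHD proteins, in the intermembrane space. Proteases and prohibitins then sort out and remove damaged inner membrane and matrix proteins. In blood this machinery is present in leukocytes and platelets, and in reticulocytes, the young red cells, which lose their mitochondria as they mature.

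Promoters are shown for the 2 members highest in CH, Chchd10 and Timm17b, and for Phb2, a member lower in CH. Clpp and Timm9 fell more in CH than Phb2, and their promoters held none of the letters marked here. Each runs from 250 bases before to 50 bases after the gene's start, 5′ to 3′ on the gene's strand, from RefSeq on GRCm38.p6. Capitals mark the letters searched for. In Chchd10 (chr10:75932880-75933179, + strand) they mark TGATGNAA, the composite element known to be bound by C/EBP and ATF factors. In Timm17b (chrX:7899086-7899385, + strand) they mark CCAAT or its reverse complement, and in Phb2 (chr6:124712039-124712338, + strand) the reverse complement of CCGGAAGTG, the site type of ETS and GABP factors.
Chchd10: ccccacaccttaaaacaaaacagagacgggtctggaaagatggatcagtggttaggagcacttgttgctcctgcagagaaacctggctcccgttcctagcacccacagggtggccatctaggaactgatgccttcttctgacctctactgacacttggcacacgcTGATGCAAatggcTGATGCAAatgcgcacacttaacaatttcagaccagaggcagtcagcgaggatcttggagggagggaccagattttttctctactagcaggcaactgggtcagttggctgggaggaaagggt
Timm17b: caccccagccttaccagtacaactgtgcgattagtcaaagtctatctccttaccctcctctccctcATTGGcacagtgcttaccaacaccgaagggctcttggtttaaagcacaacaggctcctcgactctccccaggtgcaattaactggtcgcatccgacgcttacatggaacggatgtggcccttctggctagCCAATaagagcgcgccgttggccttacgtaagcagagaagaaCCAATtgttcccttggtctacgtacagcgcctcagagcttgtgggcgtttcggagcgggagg
Phb2: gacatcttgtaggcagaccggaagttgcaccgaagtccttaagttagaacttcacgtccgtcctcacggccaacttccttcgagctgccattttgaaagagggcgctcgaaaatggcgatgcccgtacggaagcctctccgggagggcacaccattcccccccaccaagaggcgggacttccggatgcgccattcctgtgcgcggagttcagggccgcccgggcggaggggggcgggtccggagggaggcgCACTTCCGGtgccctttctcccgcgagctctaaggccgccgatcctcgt

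Both strands of the 33 promoters that RefSeq gives for 31 of the members were searched for 7 motifs, and the share of 21263 promoters of protein-coding genes with the same letters was taken for scale. TGATGNAA was found in Chchd10 alone among the members (1 of 33 promoters, 3.03%, against 3.6% of all promoters). Its 2 copies there are close together, and 9 of all promoters, 0.0423%, held 2 or more, a count made after the Chchd10 sequence was seen. CCGGAAGTG was found in 7 members, Phb2, Timm10, Timm23, Timm29, Timm8a2, Timmdc1 and Tomm70a (21.2% of the promoters, against 2.71% of all). In that order, their log2 changes in CH against NX were -1.50, 0.92, -0.67, 0.70, 0.62, -0.88 and -0.73. CCAAT was found in 10 members (30.3%, against 38.2%). The 2 member promoters with at least 3 copies were those of Timm17b and Tomm40, as had 3.73% of all promoters. In CH against NX these genes changed by 2.74 and -0.77 on the log2 scale. A relaxed form of the NRF1 site, with 1 central letter left free, was found in Chchd4, Timm8b and Tomm20 (9.09%, against 6.38%), and the fully palindromic NRF1 site, which the relaxed form includes, in no member promoter (1.33% of all). AGATAA, a form of the GATA site, was found in 2 members (6.06%, against 9.65%), and CGTG, the short core that hypoxia-inducible factors bind, in 27 members (87.9% of their promoters, against 66.8%). These are matches of letters and were not tested as sites. Afg3l2, Timm21, Tomm7, Tomm40l and Chchd7 were not searched.

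In CH the members changed in both directions, as all genes did. Against NX, 3 of the 36 were higher (8.33%), Chchd10, Timm17b and Timm17a, where 9.07% of all 18193 genes were higher. Another 6 were lower (16.7%), Clpp, Timm9, Phb2, Tomm34, Timm8a1 and Timm21, where 19.5% of all genes were lower. Both shares lie near those of all genes, and the counts here and below include Chchd10, whose changes led to the set. In whole blood, fewer cells of a type and less RNA per cell cannot be told apart. The members' median log2 change was -0.29, against 0.05 over all genes. Their quartiles were -0.78 and 0.41, against -0.81 and 0.56 over all genes, and their range was -2.23 to 2.74.

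In REC the members moved mostly one way. Against NX, 12 of the 36 were higher (33.3%), where 2.5% of all genes were higher, and none was lower, where 1.79% of all genes were lower. No member had a negative change at an unadjusted p under 0.05 in limma, where 1280 of all 18193 genes had one. The analysis of variance without moderation called no member lower, and 1.42% of all genes. With so small a share, none among 36 says little. The 12 were Tomm7, Timm22, Timm8b, Chchd10, Timm10b, Timm13, Timm50, Tomm20, Chchd5, Tomm40, Timm10 and Tomm22. The median log2 change was 0.84, against -0.02 over all genes, and 32 of the 36 changes were positive. The count rests on all arrays being present: it was 5 without REC 2, 4 without REC 3, 5 without NX 1 and 5 without NX 4, when 0.792%, 0.852%, 0.896% and 1.16% of all genes were higher. Tomm7, Timm8b and Timm10b were called with any 1 array left out. Tomm40 lost its call without REC 3 (adjusted p = 0.0606). Timm13, Timm50 and Timm10 lost theirs without REC 2, REC 3, NX 1 or NX 4 (adjusted p 0.0522 to 0.0824). Timm22 lost its call without REC 1, REC 2, REC 3, NX 1, NX 2 or NX 4 (0.0608 to 0.0871), Tomm20 without any NX array or any REC array but REC 4 (0.0524 to 0.0846), and Tomm22 without any NX or REC array (0.0567 to 0.0933).

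Between the hypoxic and the recovered mice, 20 of the 36 members were lower in CH than in REC (55.6%), where 23.3% of all genes were lower. Of the genes of the mitochondrial ribosome and of complex I, counted below, 78.9% and 52.3% were lower, so this was not particular to the members. Timm17b and Chchd10 were higher in CH than in REC (5.56% of the members, where 12.3% of all genes were higher). The median log2 change was -1.21, against 0.07 over all genes. The 3 comparisons share arrays, so their values are set side by side and not as separate evidence.

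**Figure D1:**
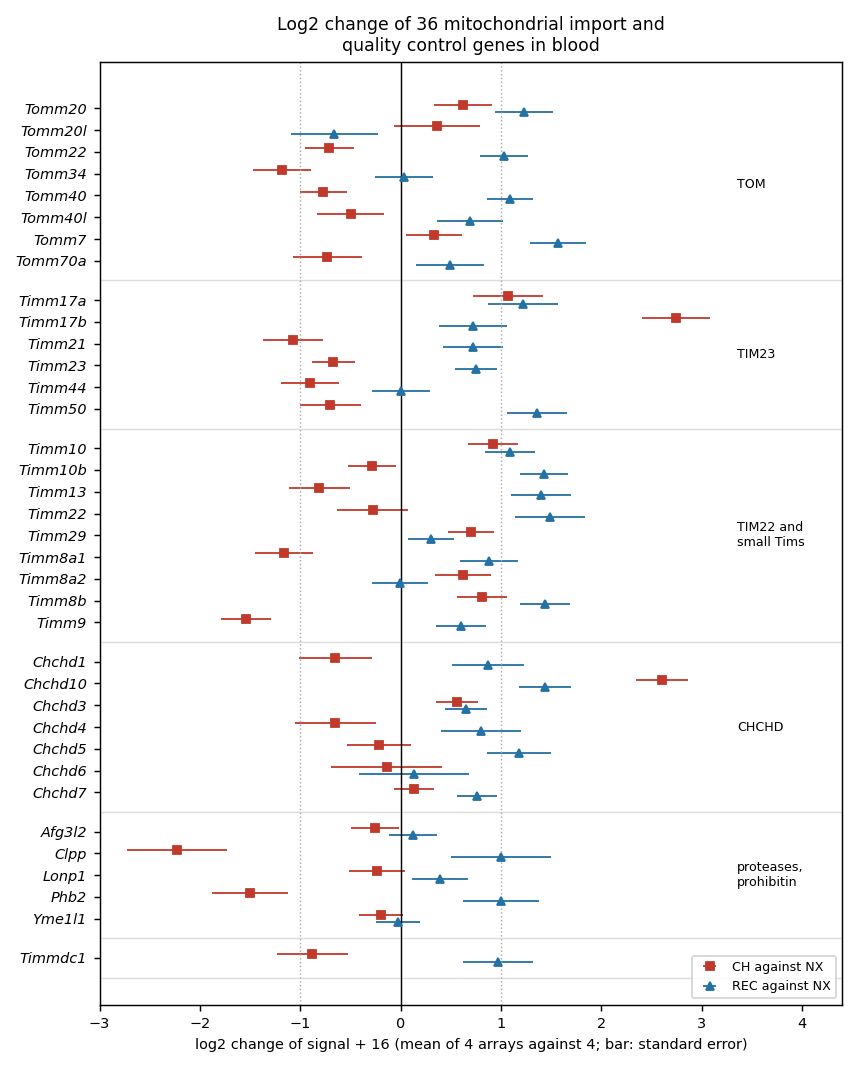
Log2 change of signal + 16 for each of the 36 genes, by role, in CH against NX (squares) and REC against NX (triangles), as means of 4 arrays against 4 with standard errors and dotted lines at a 2-fold change. The triangles lie right of 0 for 32 genes, while the squares spread from -2.23 for Clpp to 2.74 for Timm17b.

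Of the 8 genes named for the TOM complex, 4 were higher in REC than in NX (50%, where 2.5% of all genes were) and 1, Tomm34, was lower in CH than in NX (12.5%, where 19.5% of all genes were). Tomm7, a small subunit that stabilizes the TOM channel, had signals of 664, 788, 631 and 1393 in CH, 1933, 2127, 2386 and 1545 in REC, and 534, 577, 796 and 740 in NX. All 4 REC arrays lay above all NX and CH arrays, and the log2 change in REC against NX was 1.57 (SE 0.28, adjusted p = 0.0058). In CH it was 0.33 (SE 0.28, adjusted p = 0.419), with CH 4 alone above the NX arrays. Tomm20, the receptor for presequences, had 1108, 1589, 2089 and 3101 in CH, 2677, 2956, 3243 and 2451 in REC, and 1039, 1203, 1327 and 1228 in NX. Its CH arrays overlapped both other groups, while the REC arrays lay above the NX arrays (log2 change 1.23, SE 0.29, adjusted p = 0.024). Tomm40, the channel itself, was dim: 3.3, 14, 8.51 and 4.91 in CH, 69.7, 68.6, 87.4 and 53.3 in REC, and 20.1 to 28.3 in NX. The groups did not overlap, and the log2 change was 1.09 in REC against NX (SE 0.23, adjusted p = 0.0139) and -1.86 in CH against REC (SE 0.23, adjusted p = 2.47e-05). All 4 CH signals lay below the pseudocount of 16, and the change in CH against REC was -3.17 with a pseudocount of 1 and -0.90 with 64. The REC call against NX was lost with a pseudocount of 1 (adjusted p = 0.0734) and, at a change of 0.60, with 64.

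Tomm34, a cytosolic co-chaperone of Hsp70 and Hsp90 was named for its link to import. It had 384, 644, 1036 and 802 in CH, 1528, 1505, 1828 and 1480 in REC, and 1175, 1880, 1882 and 1387 in NX. All CH arrays were below all other arrays, with a log2 change of -1.18 against NX (SE 0.29, adjusted p = 0.00727), and the REC arrays overlapped the NX arrays (0.03, SE 0.29, adjusted p = 0.982). Without CH 1 the change in CH was -0.92 (adjusted p = 0.0176), under 2-fold. Tomm22, the receptor that organizes the complex, was higher in REC by 1.03 on the log2 scale (SE 0.24, adjusted p = 0.0266). The other members of the group, Tomm70a, Tomm40l and Tomm20l, had changes on the log2 scale of -0.73, -0.50 and 0.36 in CH and 0.49, 0.69 and -0.66 in REC, none of them called against NX.

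The 6 genes of the presequence translocase gave the widest split in CH. Timm17a and Timm17b encode alternative forms of the same channel subunit. Timm17b had 2311, 3009, 1853 and 3452 in CH, 446, 646, 544 and 968 in REC, and 185, 459, 437 and 506 in NX. Every CH array lay above every other array, and the log2 change was 2.74 against NX (6.7-fold, SE 0.34, adjusted p = 5.49e-05). Against REC it was 2.02 (SE 0.34, adjusted p = 3.58e-04), but -0.40 when arrays are scaled on their hybridization controls. Its second, dimmer probe set had 290, 429, 217 and 469 in CH, 84.3, 139, 119 and 80.8 in REC, and 38.4, 85.9, 64.1 and 95.6 in NX. Timm17a had 373, 244, 202 and 499 in CH, 287, 366, 492 and 277 in REC, and 71.6, 177, 227 and 126 in NX. One CH array, CH 3, lay below the highest NX array, and the log2 change in CH was 1.07 (SE 0.35, adjusted p = 0.0345), turning to -0.54 under hybridization control scaling. The call was lost without CH 1, CH 4, NX 1 or NX 4, with adjusted p of 0.0755 to 0.0946. In REC the Timm17a change was 1.22 (SE 0.35, adjusted p = 0.0633).

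The other 4 subunits of the translocase had negative changes in CH. Timm21, which links the TIM23 complex to the TOM complex, had 114, 89, 266 and 92.2 in CH, 454, 508, 447 and 506 in REC, and 272, 282, 376 and 223 in NX. CH 3 overlapped the NX arrays and the other 3 CH arrays lay below them (log2 change -1.07, SE 0.30, adjusted p = 0.0161), and the call was lost without CH 2, CH 4 or NX 3 (adjusted p 0.0372 to 0.0592, with the change down to -0.92). Timm50, the receptor of the translocase, had 22, 26.2, 86.8 and 61.3 in CH, 206, 252, 240 and 235 in REC, and 67.6, 88.9, 100 and 70.9 in NX. The REC arrays lay far above both other groups, with a log2 change of 1.36 against NX (SE 0.30, adjusted p = 0.0196) and of -2.06 in CH against REC (SE 0.30, adjusted p = 1.18e-04). Its 2 dimmer probe sets were not called in any comparison, and the mean over the 3 was not called either. Timm23, the channel, differed from NX by -0.67 in CH (adjusted p = 0.0265) and by 0.75 in REC (adjusted p = 0.0543) on the log2 scale, both under 2-fold, and was lower in CH than in REC by 1.42 on the log2 scale, a fold of 2.68 (adjusted p = 1.17e-04). Timm44, which anchors the import motor, had a log2 change of -0.90 in CH against NX (adjusted p = 0.0321, under 2-fold) and a mean signal of 187 ± 41.8 in REC, against 187 ± 35.9 in NX (SD, n = 4 arrays each).

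Of the 9 genes of the carrier route, 5 were higher in REC than in NX (55.6%, where 2.5% of all genes were) and 2 were lower in CH than in NX (22.2%, near the 19.5% of all genes). Timm22, the insertion channel, had 68.3, 8.42, 59 and 51.6 in CH, 183, 216, 204 and 123 in REC, and 57.7, 51.4, 67.4 and 38.3 in NX. The CH arrays overlapped the NX arrays and CH 2 was far below the rest, while all REC arrays lay above both groups (log2 change 1.49 against NX, SE 0.35, adjusted p = 0.0258). Its other, dimmer probe set had a change of 0.10 in REC (adjusted p = 0.901), and the mean over both was not called (0.80, adjusted p = 0.0651). The small Tim chaperones shuttle carriers across the intermembrane space. Timm8b had 236, 255, 242 and 325 in CH, 366, 508, 554 and 285 in REC, and 114, 160, 170 and 131 in NX. It was above NX on every CH and REC array, with a log2 change of 0.81 for CH (SE 0.25, adjusted p = 0.0267, under 2-fold, and -0.80 under hybridization control scaling) and 1.44 for REC (SE 0.25, adjusted p = 0.00544). Timm10b, a small Tim bound to the TIM22 complex, had 82.9, 103, 145 and 92.7 in CH, 298, 462, 374 and 396 in REC, and 99.4, 152, 140 and 137 in NX, with CH and NX overlapping and REC apart (log2 change in REC 1.43, SE 0.24, adjusted p = 0.00429). Of the 4 probe sets of Timm10b, 2 were called higher in REC, and another changed by -0.01 (adjusted p = 0.993). The mean over them was under 2-fold (0.88) and not called. Timm13 had 72.7, 112, 141 and 79.8 in CH, 461, 776, 519 and 370 in REC, and 124, 234, 242 and 162 in NX. Its REC arrays stood apart from both other groups (log2 change 1.40 against NX, SE 0.30, adjusted p = 0.0153), and in CH against REC it was 4.62-fold lower (adjusted p = 5.68e-05).

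Timm9 and Timm10 together form the main chaperone of the intermembrane space, and in CH their changes had opposite signs, although not under hybridization control scaling, where that of Timm10 was -0.69. Timm9 had 24.4, 40.7, 57.4 and 52.1 in CH, 257, 245, 270 and 200 in REC, and 140, 189, 182 and 114 in NX, while Timm10 had 382, 516, 518 and 377 in CH, 433, 579, 614 and 400 in REC, and 177, 288, 251 and 205 in NX. Timm9 was below NX on every CH array (log2 change -1.54, SE 0.25, adjusted p = 4.68e-04) and Timm10 was above NX on every CH array (0.92, SE 0.25, adjusted p = 0.0111, under 2-fold). In REC their changes were 0.60 (SE 0.25, adjusted p = 0.219) and 1.09 (SE 0.25, adjusted p = 0.0207). The difference between the 2 genes was not tested, and Timm10 was named as the partner of Timm9 after its values were seen. Timm8a1, whose human counterpart is mutated in deafness-dystonia syndrome, had 156, 147, 249 and 75.1 in CH, 598, 619, 774 and 629 in REC, and 316, 338, 324 and 412 in NX. Its 3 groups did not overlap, and it was lower in CH by 1.16 on the log2 scale (2.24-fold, SE 0.29, adjusted p = 0.00718), or by 0.89 without CH 4. Its second, dimmer probe set changed by -0.23 in CH (adjusted p = 0.63), and the change was under 2-fold with the mean over both (-0.70) and with quantile normalization (-0.84). Timm29, a subunit of the TIM22 complex, and Timm8a2 were not called against NX, the second of them with mean signals of 21.5, 7.57 and 7.5 in CH, REC and NX.

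**Figure D2:**
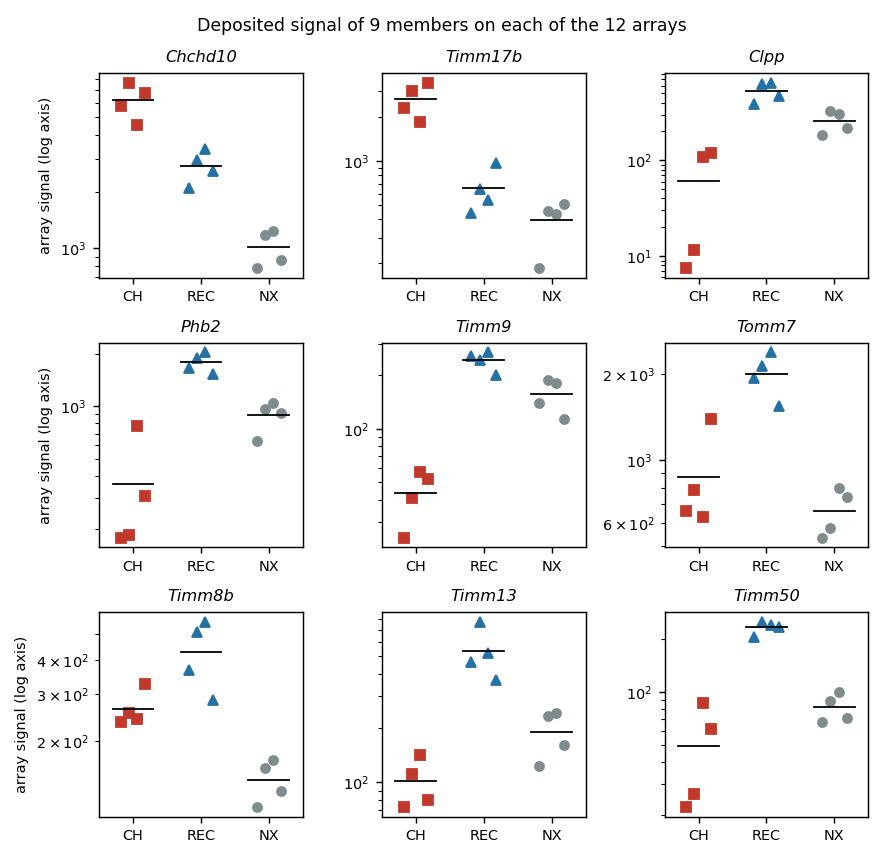
Deposited signal on a log axis for 9 of the genes, 1 point per mouse, with CH (squares) left of REC (triangles) and NX (circles) and a bar at the arithmetic mean of 4 arrays. Chchd10 and Timm17b are highest in CH, Clpp, Phb2 and Timm9 lowest in CH, and Tomm7, Timm8b, Timm13 and Timm50 highest in REC.

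Among the 7 CHCHD genes, Chchd10 is the gene whose values led to the set. Its protein lies in the intermembrane space, and human mutations of it cause motor neuron disease and myopathy. It had 5786, 7682, 4576 and 6712 in CH, 2099, 2969, 3389 and 2585 in REC, and 778, 1174, 1230 and 858 in NX. The groups did not overlap: the mean was 6.05-fold above NX in CH and 2.71-fold above NX in REC, log2 changes of 2.60 and 1.44 (SE 0.26 each). CH was above REC by 1.16 on the log2 scale, which was 0.09 with quantile normalization and turned to -1.26 under hybridization control scaling. By a second probe set CH differed from NX by 2.63, REC from NX by 1.80 and CH from REC by 0.84 on the log2 scale, and its CH and REC arrays overlapped (601 in CH 3, against 665 in REC 3).

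Chchd5, a small intermembrane space protein, had 23.5, 57.9, 87.2 and 73.9 in CH, 174, 206, 209 and 123 in REC, and 95.3, 49.8, 82 and 53.3 in NX. The CH and NX arrays overlapped and the REC arrays lay above them (log2 change 1.18, SE 0.32, adjusted p = 0.0454), a call that was lost without CH 2 or any 1 of the REC or NX arrays (adjusted p 0.0501 to 0.139). The second probe set of Chchd5 changed by 0.18 in REC (adjusted p = 0.895), and the mean over both was not called (0.68). Chchd4, the import receptor of the intermembrane space, had 211, 112, 51.2 and 36.5 in CH, 248, 288, 361 and 169 in REC, and 111, 150, 187 and 127 in NX. Its CH arrays ran from above to far below the NX range, and it was not called against NX in CH (log2 change -0.65, SE 0.40) or REC (0.80, SE 0.40). Chchd3 and Chchd6 belong to the complex that shapes the cristae. Chchd3 differed from NX by 0.56 in CH (adjusted p = 0.0569) and by 0.65 in REC (adjusted p = 0.0946) on the log2 scale, and Chchd6 varied from 2.36 to 101 among the CH arrays alone. Chchd1, a protein of the mitochondrial ribosome, was lower in CH than in REC by 1.52 on the log2 scale (adjusted p = 0.00429), and Chchd7 had 231 ± 9.33 in CH, 367 ± 39.7 in REC and 211 ± 26.5 in NX (SD, n = 4 arrays each), with a change in REC of 0.76 (adjusted p = 0.0467, under 2-fold).

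Of the 5 proteases and prohibitins, Clpp and Phb2 were lower in CH than in NX (40%, where 19.5% of all genes were) and none was called in REC, where limma gave 1 positive and 0 negative changes at an unadjusted p under 0.05 and the analysis of variance without moderation called none. Of all 18193 genes, 2007 had such a positive and 1280 such a negative change in REC. That analysis of variance called 1.68% of all genes higher and 1.42% lower. Clpp, the proteolytic subunit of the matrix ClpXP protease, had 7.46, 11.5, 108 and 119 in CH, 385, 633, 648 and 469 in REC, and 185, 328, 301 and 220 in NX. All CH arrays were below all NX arrays and fell into a dim pair and a brighter pair, and the 4.68-fold lower level (log2 change -2.23, SE 0.50, adjusted p = 0.00412) had the largest standard error among the members called in CH. In CH against REC the log2 change was -3.23 (SE 0.50, adjusted p = 1.87e-04). The dim pair lay below the pseudocount of 16, so the sizes depend on it: with pseudocounts of 1 and 64 the changes were -2.88 and -1.47 in CH against NX and -3.93 and -2.36 in CH against REC, all of them called. A second probe set had 23.1, 10.3, 45.7 and 12.8 in CH, 202, 315, 306 and 158 in REC, and 95.2, 110, 125 and 108 in NX, without that split (log2 change in CH -1.76, adjusted p = 6.13e-04). Phb2, a prohibitin that forms rings in the inner membrane and serves as a mitophagy receptor, had 178, 184, 770 and 308 in CH, 1660, 1877, 2039 and 1538 in REC, and 636, 966, 1043 and 919 in NX. CH 3 lay inside the NX range and the other CH arrays below it (log2 change -1.50, SE 0.38, adjusted p = 0.00771), and without CH 3 the change was -1.94. REC arrays were above all NX arrays, with a change of 1.00 (SE 0.38, adjusted p = 0.162) that was not called, while 1 of its 3 dimmer probe sets was called higher in REC (1.30, adjusted p = 0.0361).

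Yme1l1, the protease of the inner membrane that faces the intermembrane space, depended on the probe set. The brightest of its 4 probe sets had 252, 262, 232 and 332 in CH, 256, 301, 313 and 347 in REC, and 289, 332, 359 and 264 in NX. These groups overlapped, with log2 differences from NX of -0.20 for CH and -0.03 for REC (SE 0.22 each). The dimmest probe set had 41.5, 42.8, 50.8 and 25.3 in CH, 28.6, 39.3, 36.7 and 50.6 in REC, and 280, 227, 238 and 158 in NX, far lower in both conditions (-2.10 and -2.13). The other 2 probe sets differed from NX by 0.98 and 0.62 in CH and by -0.70 and -0.05 in REC on the log2 scale. Lonp1, the main matrix protease, and Afg3l2, of the protease that faces the matrix, had -0.24 and -0.26 in CH and 0.39 and 0.12 in REC, and none of these was called. A dimmer probe set of Afg3l2 was called lower in CH, by a log2 change of -1.30 against NX (adjusted p = 0.0206) and of -1.90 against REC (adjusted p = 0.00147). Timmdc1, taken in by its name and known as an assembly factor of complex I, had 75.6, 34, 45.1 and 5.93 in CH, 163, 133, 193 and 170 in REC, and 99, 72.2, 69.8 and 65 in NX, and was lower in CH than in REC by 1.85 on the log2 scale (SE 0.35, adjusted p = 8.97e-04).

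**Figure D3:**
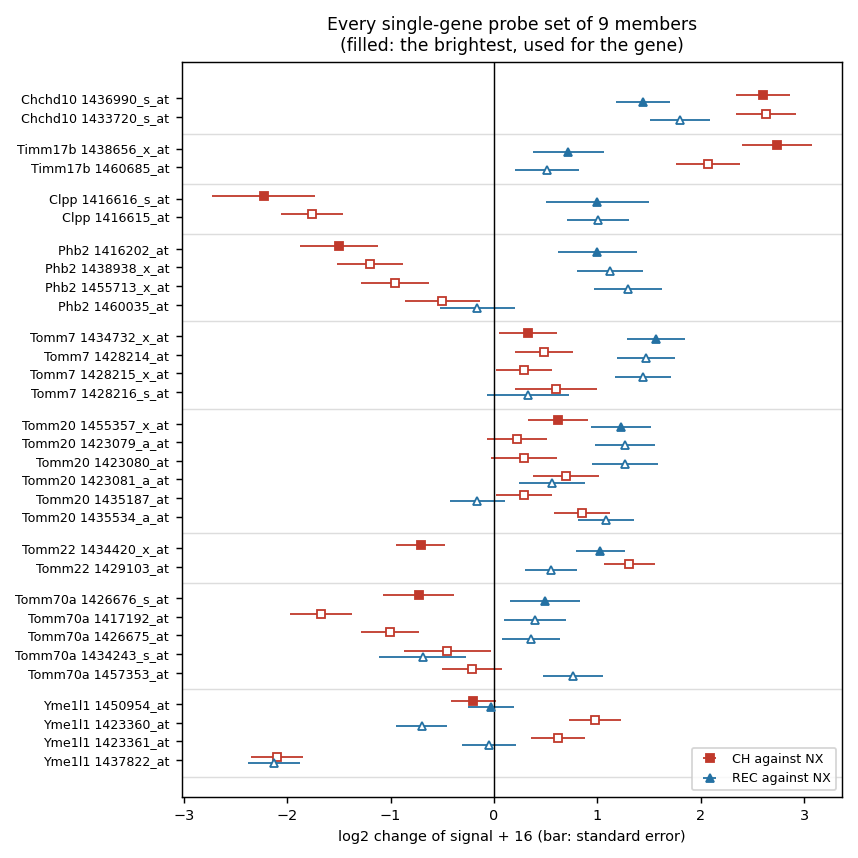
Log2 change of signal + 16 with standard errors for every single-gene probe set of 9 genes, in CH against NX (squares) and REC against NX (triangles), filled for the brightest probe set of each gene. The probe sets of Chchd10, Timm17b and Clpp lie together, while 1 of 4 for Yme1l1 lies near -2 in both conditions and the 2 of Tomm22 lie on opposite sides of 0 in CH.

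Counted over all 79 probe sets, 6 were called higher and 13 lower in CH against NX (7.59% and 16.5%), where 8.04% and 13.9% of all 45101 probe sets were. In REC against NX, 20 were called higher (25.3%, against 1.62% of all probe sets) and 1 lower (1.27%, against 2.74%), the dimmest Yme1l1 probe set. In CH against REC, 4 were called higher (5.06%, against 12.6%) and 33 lower (41.8%, against 15.2%). The probe sets of 1 gene are not separate genes. Tomm22, named here after its values were seen, gave opposite pictures. Its brighter probe set had 452, 822, 391 and 557 in CH, 1661, 1853, 2030 and 1726 in REC, and 810, 874, 945 and 903 in NX, and its other one 1032, 1415, 1246 and 1843 in CH, 810, 890, 928 and 590 in REC, and 422, 591, 585 and 564 in NX. The log2 change in CH was -0.71 (adjusted p = 0.0425) by the first and 1.31 (adjusted p = 0.00129) by the second. The first has the suffix (_x_at) of probe sets that can also bind related sequences, as do the main probe sets of Timm17b, Tomm20 and Tomm7. Among the partner genes below, those of Pitrm1 and Micos10 have it too. Both probe sets of Chchd10 and the main ones of Clpp, Tomm70a, Afg3l2 and Timm8a2 end in _s_at, for probes that several transcripts share. The same holds for the partners Pam16, Mtx2 and Hspe1. Of the 6 probe sets of Tomm20, 4 were higher in REC, as were 3 of the 4 of Tomm7. Of the 5 probe sets of Tomm70a, the receptor for carrier proteins, 2 dimmer ones were called lower in CH (log2 changes of -1.67 and -1.01), and the brightest was not called. No member had probe sets called in opposite directions in the same comparison.

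The arrays of a group differed in how high the members stood. CH 3 had the highest CH signal for 16 of the 36 members, and the members' median log2 distance from the NX mean was -0.06 on that array, against -0.35, -0.36 and -0.38 on CH 1, CH 2 and CH 4. CH 3 also had the highest summed signal of 6 B cell markers among the CH arrays, 11393, against 1915, 2201 and 4922 on CH 1, CH 2 and CH 4. The sums of T cell and monocyte markers were highest on CH 3 too (4143 and 11736). That of neutrophil markers was highest on CH 1 (51398), and those of red cell and platelet markers on CH 4 (171130 and 55881). In REC the median distances were 0.68, 0.96, 1.16 and 0.76, and REC 3 was highest for 23 members. In NX they were -0.21, 0.11, 0.23 and -0.14, with NX 1 lowest for 22 members.

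Marker genes of some blood cell types, mainly red cells, B cells and T cells, differed between these groups. The summed signal of 9 measured red cell markers, of 12 listed, was 107679 to 171130 in CH, 4944 to 15256 in REC and 21561 to 32766 in NX, with 8 of the 9 called higher in CH against NX and 5 called lower in REC. Hba-a1 averaged under 16 in all groups and Rhag in REC. That of B cell markers was 1915 to 11393 in CH, 19818 to 23066 in REC and 16294 to 20181 in NX, with 5 of 6 called lower in CH and Pax5 under 16 in CH and REC. That of 7 T cell markers was 1148 to 4143 in CH, 8528 to 9022 in REC and 4570 to 6358 in NX, with 6 of 7 called lower in CH. Of 5 monocyte markers 1 was called lower in CH, and the 8 neutrophil and 6 platelet markers were not called against NX. The part of these shifts in the members' changes was not tested.

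Partners of the import machinery that are not members were counted the same way. Of 25 import partners, 3 were called higher (12%, where 9.07% of all genes were) and 11 lower (44%, where 19.5% were) in CH against NX, and 4 were called higher in REC (16%, where 2.5% were). In CH against REC, 3 were called higher (12%, where 12.3% of all genes were) and 13 lower (52%, where 23.3% were). Pam16, a regulator of the import motor, had 4064, 4201, 2852 and 7225 in CH, 960, 1328, 1015 and 1004 in REC, and 390, 569, 661 and 462 in NX (log2 change in CH 3.05, SE 0.29, adjusted p = 6.80e-06). Mtx2, an outer membrane metaxin, and Immp1l, of the peptidase that trims intermembrane space proteins, were higher in CH by 2.47 and 2.10 on the log2 scale. Of the matrix chaperones, 3 were called lower in CH: Hspe1, the Hsp60 co-chaperonin, changed by -2.19, and Trap1, the mitochondrial Hsp90, and Hspd1, Hsp60 itself, by -1.90 each. Hspa9, the mitochondrial Hsp70, and its exchange factors Grpel1 and Grpel2 had changes of -0.77, -0.86 and -1.09 in CH that were not called. Hspe1 had 254, 183, 727 and 263 in CH, 2298, 2806, 2951 and 2317 in REC, and 1124, 2619, 1349 and 1176 in NX, with all CH arrays below all others.

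Of 14 genes of inner membrane organization and quality control, 4 were higher (28.6%, where 9.07% of all genes were) and 1 lower (7.14%, where 19.5% were) in CH, and 1 was higher in REC (7.14%, where 2.5% were). In CH against REC, 3 were higher (21.4%, where 12.3% of all genes were) and 5 lower (35.7%, where 23.3% were). Pitrm1, the protease that degrades cleaved presequences, had 3577, 4371, 1504 and 8650 in CH, 266, 248, 312 and 263 in REC, and 198, 319, 258 and 244 in NX. It was above every other array in CH (log2 change 3.83, SE 0.40, adjusted p = 1.26e-05) and overlapped NX in REC (0.11). Micos10, a core subunit of the cristae complex, was higher in CH by 2.41 on the log2 scale, Spg7, the partner of Afg3l2, was 2.83-fold higher (a log2 change of -0.11 under hybridization control scaling), and Opa1, the inner membrane fusion protein, changed by -1.74.

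Other nuclear genes of mitochondrial proteins were counted for scale. Of 76 Mrpl and Mrps genes, which encode the mitochondrial ribosome, 31 were higher in REC than in NX (40.8%), and of 44 Nduf genes, which encode complex I and its assembly factors, 22 were (50%). Their median log2 changes in REC were 1.09 and 1.11. In CH against NX, 6 Mrpl and Mrps genes were called higher (7.89%) and 28 lower (36.8%), with a median of -0.70. Of the Nduf genes, 13 were called higher (29.5%) and 9 lower (20.5%). In CH against REC, 60 Mrpl and Mrps genes were called lower (78.9%) and 1 higher (1.32%), with a median of -1.81. Of the Nduf genes, 23 were called lower (52.3%) and 8 higher (18.2%) in that comparison, with a median of -1.06.

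**Figure D4:**
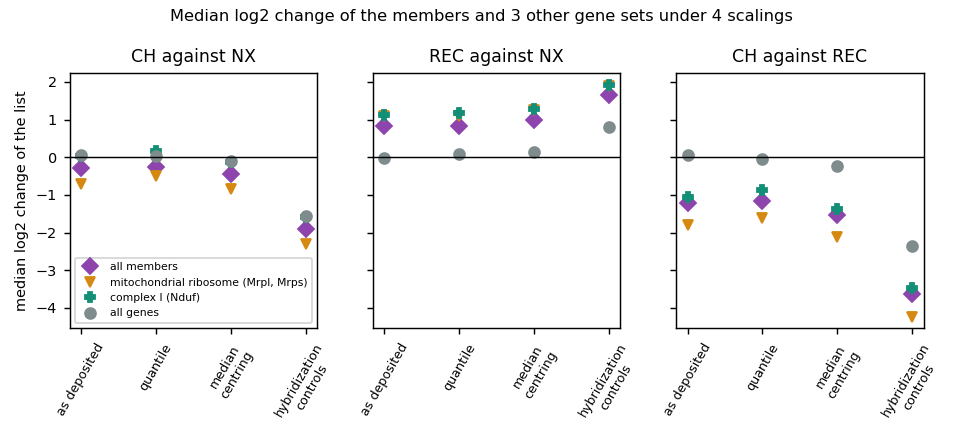
Median log2 change of the 36 genes, the Mrpl and Mrps genes, the Nduf genes and all genes under 4 scalings of the arrays, for CH against NX, REC against NX and CH against REC. The members' median is -0.27 to -1.90 in CH against NX and 0.83 to 1.64 in REC against NX. Median centring and hybridization control scaling shift all genes in the direction of these medians, so their sign could not change there. The median of the Nduf genes in CH against NX is 0.03 as deposited and 0.16 with quantile normalization. It is -0.13 with median centring and -1.59 with hybridization control scaling.

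The scaling sets the level of all changes. The hybridization controls, bacterial transcripts added in a fixed amount, had a mean log2 signal of 14.0 to 14.7 in CH, 11.6 to 12.2 in REC and 12.3 to 13.1 in NX. Scaling the arrays on them moved the median of all genes by -1.61 in CH against NX and by 0.81 in REC against NX. Under it 2 of the 36 members, Chchd10 and Timm17b, had a positive change in CH against NX, and all 36 had one in REC against NX. The members' median relative to that of all genes was -0.34 in CH against NX and 0.86 in REC against NX, and control scaling leaves this difference as it is by construction, since it moves every gene of an array alike. The ratio of 3′ to 5′ actin signal, a sign of RNA integrity, was 1.91 to 2.11 in CH, 1.54 to 1.73 in REC and 1.61 to 1.86 in NX, and its part in these changes was not tested.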

How the data were processed

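Whole blood RNA of 12 mice, 4 each in CH, REC and NX, was measured on 1 array each. The values deposited by the authors are intensities on a linear scale, 1 per probe set and array, with trimmed means equal at 150.0 across arrays. The authors' Methods name GC-RMA for their own analysis, and the program behind the deposited values is not named in any source used here. Groups follow titles and treatment; the CH mice are called normoxic in 1 label field, which was set aside, and the Methods give 4 mice per group where a legend gives 5.

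log2(signal + 16) was fitted in R 4.3.3 with the lmFit and eBayes functions of limma 3.58.1 (a mean per group over 12 arrays, 9 residual degrees of freedom) and adjusted by Benjamini-Hochberg over 45101 probe sets. The fit was tested on simulated data. The number of arrays limits the precision. Replicate numbers are not stated to pair mice. Alternatives covered scaling, pseudocount, filter, prior, thresholds, probe sets, the replicate block and each array left out. Figures were drawn with matplotlib 3.10.9 in Python 3.11.15.

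The members and lists were chosen with earlier results of these data known. Genes were named as follows: in each comparison up to 10 called members per direction with the largest changes, the member with the largest change in each role list, Chchd10 and Yme1l1, and up to 3 called partner genes per list and direction in CH. Other members are named to account for all of them, with their values already seen.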

Additional observations from a re-analysis of the deposited data

Results flagged for a closer look

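Of 60 sets of 4 arrays examined, 20 members in 3 groups, 2 held an array far from the other 3, and chance gives about 1 in 20. Timm17b had a signal of 185 in NX 1, against 437 to 506 on the other NX arrays (gap over range 0.85). Tomm34 had a signal of 1828 in REC 3, against 1480 to 1528 on the other REC arrays (gap over range 0.849 on the same log2 scale).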

How the results depend on the processing

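The 34 results on single genes were recomputed under up to 26 alternatives each, 882 in all: 775 kept their direction and their side of the threshold, 94 lost the call, 2 gained one and 11 changed direction. Of these, 3 came with arrays scaled on the hybridization controls: Chchd10 in CH against REC (-1.26), Timm17a in CH against NX (-0.54) and Timm17b in CH against REC (-0.40). The other 8 were of Yme1l1, whose reported changes lie between -0.20 and -0.03: 0.21 in CH against NX and 0.23 in CH against REC with quantile normalization, 0.55 in CH against REC with the mean over its probe sets, and in REC against NX 0.13 with median centring, 0.78 with control scaling and 0.05, 0.01 and 0.04 without REC 1, NX 2 and NX 3 (-0.10 to 0.05 with any 1 array left out). The control scaling shifts all genes. Under it 1 member was higher and 28 lower in CH against NX (1.45% and 75.9% of all genes). In REC against NX 28 were higher (21.8% of all genes). In CH against REC 0 were higher and 35 lower (1.43% and 92.8% of all genes). The 3 members higher in CH than in NX became 5 with quantile normalization (8.05% of all genes) and 6 with no fold minimum (12.2%). The 6 lower became 10 with no fold minimum (23.7% of all genes) and 1 at an adjusted p under 0.001 (5.67%). The 12 higher in REC (2.5% of all genes) became 4 with a pseudocount of 1 (0.555%). They became 6 with the mean over the probe sets of a gene (2.07%) and 0 at an adjusted p under 0.001 (0.011%). With 1 array left out there were 4 to 13 (0.792% to 3.29% of all genes). The 2 higher in CH than in REC became 1 with quantile normalization, with median centring, with the mean over probe sets and at an adjusted p under 0.001, which also took the 20 lower to 12. The causes were not tested, beyond the fewer calls that a stricter threshold makes by construction. Of the 4 same-numbered pairs of CH and NX mice, 3 deviated together (r 0.103 to 0.436) and pair 2 did not (-0.203), and no pair with a REC mouse had r over 0.0671, so the numbers were not taken to pair the mice. With the number as a replicate block, 11 members were higher in REC against NX (2.54% of all genes). The other 5 counts were equal to those without it. Beside them, 9.21% of all genes were higher and 19.6% lower in CH against NX. In REC against NX 1.76% were lower, and in CH against REC 13.0% were higher and 23.4% lower. Signals near or below the pseudocount limit Tomm40, Clpp in CH, Timm8a2 and Tomm20l.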
